A study of Mus musculus with 7 samples.

Results

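The 10 genes described here encode proteins that bind fatty acids or bring them into cells: the cytosolic carriers Fabp3, Fabp4, Fabp5 and Fabp7, the surface receptor Cd36, the lipase Lpl, and the fatty acid transport proteins Slc27a1, Slc27a3, Slc27a4 and Slc27a6. They were taken by name from a table of 22880 genes by a rule that names no value, and all 10 names were found. RNA of the optic nerve was measured at postnatal day 14 (P14) in 4 control mice and 3 mutant mice, both nerves of a mouse forming 1 sample. Per the labels, control mice were Cre- Fasn lox/lox and mutant mice were Cre+ Fasn lox/lox, so that both genotypes carried the floxed alleles of fatty acid synthase (Fasn), the enzyme of de novo fatty acid synthesis, and only the mutants carried Olig2Cre. The methods of the study, which cover all its developmental experiments, also name Fasn lox/wt controls. Cre was driven by the Olig2 promoter, which is active in the oligodendrocyte (OL) lineage, and the strain background was C57Bl/6, with the floxed line backcrossed into it for several generations. The Fasn allele thus stays intact in cells of the nerve that never expressed Olig2Cre.

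A cell can obtain fatty acids by making them or by taking them up. Lipoprotein lipase releases them from circulating lipoproteins, CD36 and the SLC27 proteins help them across the cell surface, SLC27 proteins also couple them to coenzyme A, and fatty acid binding proteins (FABPs) carry them through the cytosol. In the nervous system FABP7 is known from radial glia, astrocytes and OL progenitors, FABP5 from glia and neurons, and LPL from microglia and progenitors, whereas FABP4 is a protein of adipocytes, macrophages and some endothelial cells. The comparison of genotypes gives the RNA levels of these genes with and without Cre in the OL lineage.

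The 4 FABP genes are alike enough that their reads could in principle be confused, which is why a stretch of each is shown. Their coding sequences in GENCODE vM21 (GRCm38) hold 396 to 405 bases without the stop codon, and aligned pairs shared 55.3% to 66.7% of their bases. The 90 bases below are the stretch with no gap that had the most bases common to all 4 genes, 47 in number, which are in capitals.
Fabp3: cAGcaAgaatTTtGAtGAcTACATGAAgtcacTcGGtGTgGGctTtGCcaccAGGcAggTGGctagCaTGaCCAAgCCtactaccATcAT
Fabp4: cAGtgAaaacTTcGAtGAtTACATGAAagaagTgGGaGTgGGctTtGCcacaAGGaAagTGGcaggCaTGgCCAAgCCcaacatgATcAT
Fabp5: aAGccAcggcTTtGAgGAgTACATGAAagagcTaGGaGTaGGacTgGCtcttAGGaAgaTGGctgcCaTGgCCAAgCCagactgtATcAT
Fabp7: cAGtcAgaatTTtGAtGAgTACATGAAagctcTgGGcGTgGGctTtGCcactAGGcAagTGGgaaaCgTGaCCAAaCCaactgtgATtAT
Even in this stretch no run of shared bases was long, so a read is set apart by the bases in lower case. Fewer bases set reads apart from 2 pseudogenes. Fabp3-ps1 matched the coding sequence of Fabp3 at 99.2% of bases and Fabp5l2 that of Fabp5 at 94.1%, and the values of Fabp3 and Fabp5 are uncertain to the extent that reads were divided with them. Fabp3-ps1 itself was listed at no more than 0.114 FPKM in any sample.

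The transport proteins are less alike. Coding sequences of Slc27a1, Slc27a3, Slc27a4 and Slc27a6 shared 49.1% to 64.8% of aligned bases, the closest pair being Slc27a1 and Slc27a4. The stretch of 60 bases with the most common bases in the 3 genes with the larger levels is shown because Slc27a3 and Slc27a4 moved in opposite directions, and the 39 common bases are in capitals.
Slc27a1: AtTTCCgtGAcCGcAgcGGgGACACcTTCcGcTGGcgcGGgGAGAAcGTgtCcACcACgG
Slc27a3: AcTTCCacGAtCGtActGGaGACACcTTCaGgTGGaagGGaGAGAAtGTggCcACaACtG
Slc27a4: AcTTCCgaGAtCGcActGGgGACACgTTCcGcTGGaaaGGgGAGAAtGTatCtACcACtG

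Values are FPKM, read counts scaled by gene length and library size, as deposited. Differences were tested with limma-trend on log2(FPKM + 0.5) over 13866 genes with at least 0.5 FPKM in at least 3 samples, with Benjamini-Hochberg adjustment and a threshold of 0.05, and log2 fold changes are mutant over control on that scale. Recovered read totals ran from 27452222 to 43462575 per sample. Fasn was at 204.7 ± 25.1 FPKM (SD, n = 4) in controls and 56.3 ± 11.3 (n = 3) in mutants, with no overlap between the groups. The Y-linked gene Ddx3y was at 40.0 to 43.2 FPKM in control replicates 3 and 4 and mutant replicate 3 and at no more than 0.0568 in the other 4 samples, so the genotypes held different mixtures of these 2 levels. The study used male and female mice, and the labels give no sex. The nerves were whole tissue, in which fewer cells of a type and less RNA per cell cannot be told apart. The summed FPKM of 10 markers of myelinating OLs ran from 36324 to 38670 in controls and from 26491 to 34857 in mutants, and that of 10 astrocyte markers from 3208 to 3725 and from 4108 to 5060. The part of these shifts in the results was not tested.

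Slc27a4 fell and Slc27a3 rose in mutant nerves, and no other gene of the 10 passed the threshold, while 5 of the 9 tested had an unadjusted p under 0.05, as did 24.4% of all genes tested (15.9% higher and 8.50% lower). Thus 9 genes were tested, 1 was called higher and 1 lower. Of all genes tested, 2.62% were called, 1.26% higher and 1.36% lower. The share of all calls that were higher was 48.2%, and 37.9%, 33.4% and 27.6% with median ratio scaling, quantile normalization and normalized counts, but 59.5% with array weights and 76.8% with the replicate block. The groups did not overlap for 4 of the 9 genes, Fabp3 and Slc27a3 being higher and Slc27a4 and Slc27a6 lower, against 21.1% of all genes tested, 12.9% higher and 8.26% lower. The median log2 fold change was 0.17 over the 9 genes and 0.05 over all genes tested. With 4 samples against 3 an exact two-sided permutation test of 1 gene cannot give a p below 0.0571, the value it gave for these 4 genes.

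**Figure D1:**
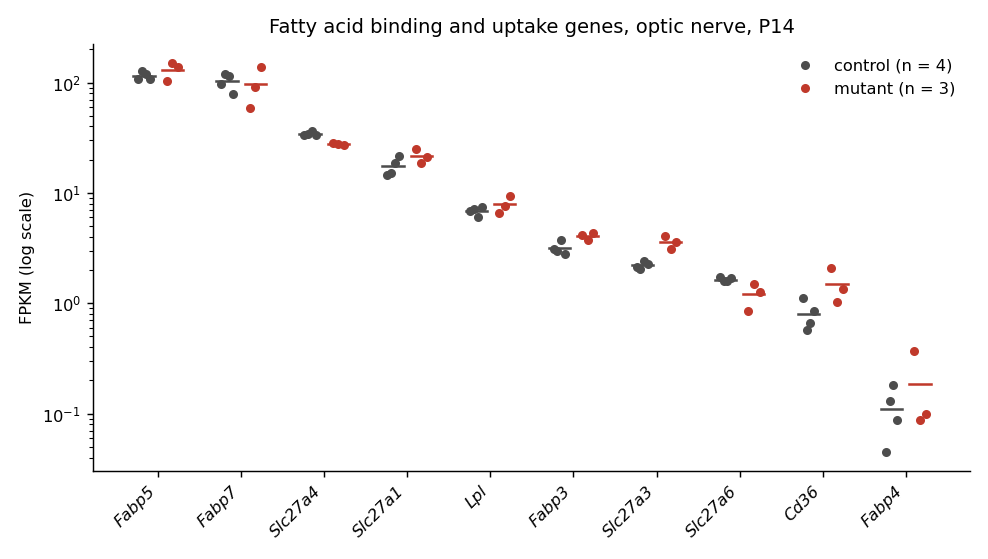
FPKM (log axis) of the 10 genes in each control (grey, n = 4) and mutant (red, n = 3) sample, ordered by the control mean, with short lines at the group means. The mutant points of Slc27a4 lie below, and those of Slc27a3 above, all control points of the gene, Fabp5 and Fabp7 lie near 100 FPKM and Fabp4 near 0.1.

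In control nerves the levels per gene length spanned from Fabp5, at 115 ± 9.56 FPKM (SD, n = 4), to Fabp4, at 0.110 ± 0.0577. The order was Fabp5, Fabp7, Slc27a4, Slc27a1, Lpl, Fabp3, Slc27a3, Slc27a6, Cd36 and Fabp4, and the ranges over the control samples overlapped between neighbours only for Fabp5 and Fabp7. That overlap depended on the length used. The table's length of Fabp5, 2112 bases, lies midway between its coding transcript of 987 bases and a transcript of 3238 bases that keeps an intron. Per longest protein coding transcript, a choice made after seeing the data, Fabp5 stood at 246 ± 20.4 FPKM in controls and no longer overlapped Fabp7, at 97.8 ± 18.1. On this scale Slc27a3 and Slc27a6, and Cd36 and Fabp4, overlapped instead, while the order of the 10 genes was the same. The ratio of FPKM between genotypes does not depend on the length, whereas a fold change on the log2(FPKM + 0.5) scale of a gene near the minimum does.

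Among the cytosolic carriers, Fabp5 and Fabp7 made up nearly all of the summed level and neither passed the test. Fabp5 (chromosome 3, 10012548 to 10016607, plus strand, GRCm38) was at 107, 126, 120 and 107 FPKM in controls and 103.5, 149.1 and 139.2 in mutants. Mutant replicate 1 lay below every control and the other mutants above, so the groups overlapped and the log2 fold change was 0.17 (SE 0.124, 95% interval -0.11 to 0.45, adjusted p = 0.429, limma-trend). It was 0.33 without mutant replicate 1 and 0.07 without mutant replicate 2.

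Fabp7 (chromosome 10, 57784881 to 57788450, plus strand) was at 96.1, 119.6, 114.9 and 78.3 FPKM in controls and 58.6, 91.6 and 139.3 in mutants. Both the lowest and the highest of the 7 samples were mutants, and the coefficient of variation was 42.1% in mutants and 18.5% in controls. The log2 fold change was -0.15 (SE 0.261, 95% interval -0.74 to 0.44, adjusted p = 0.760, limma-trend). Without mutant replicate 1 its sign turned, with a log2 fold change of 0.16, and without mutant replicate 3 it was -0.46. The ratio of Fabp5 to Fabp7, in FPKM, was 1.04 to 1.37 in controls and 1.77, 1.63 and 0.999 in mutants, again with overlap.

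Fabp3, the carrier known from heart and muscle (chromosome 4, 130308595 to 130315463, plus strand), was at 3.08, 3.00, 3.71 and 2.82 FPKM in controls and 4.20, 3.78 and 4.29 in mutants. Every mutant lay above every control, the closest pair being 3.71 and 3.78. The log2 fold change was 0.33 (SE 0.111, 95% interval 0.08 to 0.58) and did not pass adjustment (adjusted p = 0.122, limma-trend). At its ends Fabp3 overlaps Gm10570 by 80 bases and Zcchc17 by 81 bases, both on the opposite strand, and whether the counting used the strand is not given in the sources used here. The 10 skeletal muscle markers summed to 3.61 to 4.81 FPKM in controls and to 6.26, 84.0 and 7.90 in mutants. Of these markers 3 were under 0.5 FPKM in all samples and none was at 0 in all. Mutant replicate 2, with the highest muscle sum, had the lowest Fabp3 of the mutants, and the part of muscle in the Fabp3 values was not tested.

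Fabp4 (chromosome 3, 10204088 to 10208576, minus strand) was under the filter and was not tested. It was at 0.0453, 0.129, 0.180 and 0.0872 FPKM in controls and 0.371, 0.0879 and 0.0996 in mutants, which corresponds to between 5.03 and 34 recovered reads. Only mutant replicate 1 stood above the controls. Of 8 adipocyte markers 7 were under 0.5 FPKM in all samples and 1, Lep, was at 0 in all, the summed level being 3.93 to 5.15 FPKM in controls and 3.67 to 6.50 in mutants.

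Cd36, the scavenger receptor that takes up long-chain fatty acids (chromosome 5, 17781690 to 17888801, minus strand), was at 1.11, 0.568, 0.669 and 0.852 FPKM in controls and 2.08, 1.03 and 1.33 in mutants. The lowest mutant lay below the highest control. The log2 fold change of 0.59 (SE 0.211, 95% interval 0.11 to 1.07) came from 56.0 to 187 recovered reads per sample and did not pass (adjusted p = 0.138, limma-trend). It was 0.38 without mutant replicate 1. With the replicate number as a block it was 0.61 and passed (adjusted p = 0.0444, limma-trend). Control replicate 4, which has no mutant of its number, does not contribute to the fold change of that fit. The fit with the block called 8.36% of all genes tested, against 2.62% without it. Endothelial cells and macrophages are known to carry CD36. The summed FPKM of 12 capillary endothelial markers was 319 to 379 in controls and 435 to 501 in mutants, and that of 7 border and perivascular macrophage markers was 43.6 to 73.9 and 54.9 to 93.3. No marker of these lists was under 0.5 FPKM in all samples, and mutant replicate 1 was the highest sample for both sums and for Cd36. Single endothelial markers differed in this. The largest, Itm2a, was at 229, 154 and 180 FPKM in mutants, and Flt1, Cdh5, Emcn and Egfl7 were also highest in mutant replicate 1. Cldn5, Pecam1, Tek, Esam, Ly6c1 and Slco1a4 were highest in mutant replicate 2, and Kdr in mutant replicate 3. The part of endothelial cells and macrophages in the Cd36 result was not tested.

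Lpl, the lipase that acts on triglyceride-rich lipoproteins (chromosome 8, 68880491 to 68907448, plus strand), was at 6.88, 7.10, 6.03 and 7.52 FPKM in controls and 6.54, 7.65 and 9.46 in mutants. The groups overlapped, and the log2 fold change was 0.17 (SE 0.127, 95% interval -0.12 to 0.46, adjusted p = 0.432, limma-trend). It was 0.29 without mutant replicate 1 and 0.04 without mutant replicate 3.

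Among the 4 transport protein genes Slc27a4 fell, Slc27a3 rose, and Slc27a1 and Slc27a6 did not pass the test. The summed FPKM of the 4 genes overlapped between the genotypes, at 51.9, 52.8, 59.3 and 59.3 in controls and 58.6, 50.7 and 53.6 in mutants (means 55.8 ± 4.02, SD, n = 4, and 54.3 ± 4.00, n = 3). Slc27a4, also called FATP4 (chromosome 2, 29802634 to 29817522, plus strand), encodes an acyl-CoA synthetase known from skin, gut and other tissues. It was at 33.6, 34.2, 36.6 and 33.7 FPKM in controls and 28.6, 27.5 and 27.4 in mutants.

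Every mutant lay below every control for Slc27a4, and the means were 34.5 ± 1.39 FPKM (SD, n = 4) in controls and 27.8 ± 0.651 (n = 3) in mutants, or 80.6% of the control mean. The log2 fold change was -0.31 (SE 0.0581, 95% interval -0.44 to -0.17, adjusted p = 0.0369, limma-trend). The call depended on which samples were kept. It held with the replicate block (adjusted p = 0.0486) and under the other fits that kept all samples (adjusted p from 0.00958 to 0.0490), but when 1 sample was left out it passed in 1 of 7 fits, that without mutant replicate 2, with adjusted p from 0.0460 to 0.127. The log2 fold change stayed between -0.32 and -0.28 over those 7 fits.

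Slc27a3, or FATP3, an acyl-CoA synthetase of the same family (chromosome 3, 90385239 to 90389938, minus strand), was at 2.12, 2.05, 2.43 and 2.28 FPKM in controls and 4.11, 3.08 and 3.61 in mutants. Every mutant lay above every control, and the means were 2.22 ± 0.168 FPKM (SD, n = 4) in controls and 3.60 ± 0.514 (n = 3) in mutants, or 162% of the control mean. The log2 fold change was 0.59 (SE 0.117, 95% interval 0.32 to 0.85, adjusted p = 0.0428, limma-trend). Without a filter on low values it was still 0.59 but no longer passed (adjusted p = 0.0867), and with 1 sample left out it passed only without mutant replicate 2, with adjusted p from 0.0306 to 0.115 and log2 fold changes from 0.50 to 0.68. The 9 meningeal fibroblast markers, all above 0.5 FPKM in some sample, summed to 2686, 1909, 2281 and 2291 FPKM in controls and to 4855, 2547 and 2917 in mutants. Among mutants, replicate 1 was highest, followed by replicate 3, for the fibroblast, pericyte and macrophage sums and for Slc27a3. In the macrophage sum control replicate 1 lay above mutant replicate 3. Vtn, the largest term of the pericyte sum, and Pdgfrb had this order among mutants. Rgs5, Kcnj8 and Abcc9 of the same list were highest in mutant replicate 2, and Notch3 in mutant replicate 3. Among controls the fibroblast sum was highest in replicate 1 and Slc27a3 in replicate 3. The part of those cells in the Slc27a3 result was not tested.

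Slc27a1, or FATP1, which is known from muscle, fat and brain capillaries (chromosome 8, 71568927 to 71586708, plus strand), was at 14.5, 15.0, 18.7 and 21.7 FPKM in controls and 25.1, 18.6 and 21.3 in mutants. The groups overlapped, and the log2 fold change was 0.31 (SE 0.151, 95% interval -0.03 to 0.66, adjusted p = 0.240, limma-trend). It was 0.20 without mutant replicate 1. Slc27a6, or FATP6, known from heart, was at 1.72, 1.58, 1.58 and 1.68 FPKM in controls and 0.856, 1.49 and 1.28 in mutants. Every mutant lay below every control, with mutant replicate 1 lowest, and the log2 fold change was -0.34 (SE 0.146, 95% interval -0.68 to -0.01, adjusted p = 0.190, limma-trend). It was -0.19 without mutant replicate 1.

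**Figure D2:**
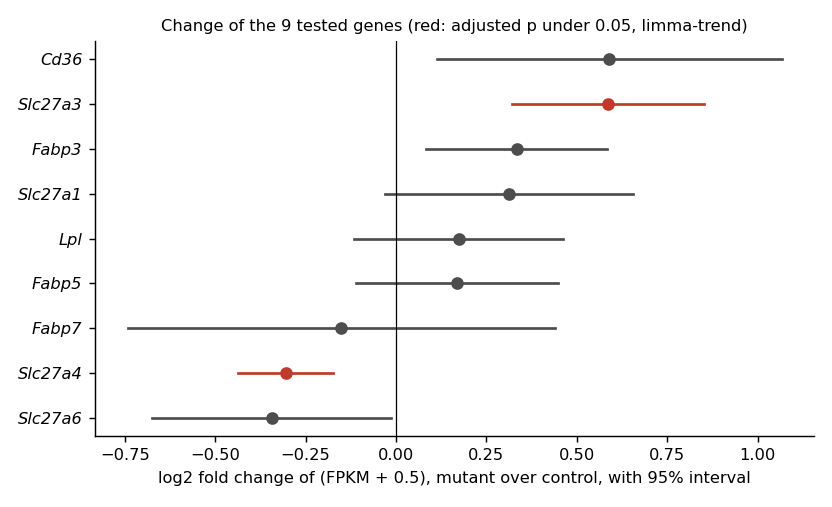
Log2 fold change of FPKM + 0.5, mutant over control, with its 95% interval for the 9 tested genes. Only Slc27a3, at 0.59, and Slc27a4, at -0.31, passed adjustment (red), and the interval is widest for Fabp7.

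The shares of the transport proteins follow from the values above and are given without a test. Slc27a4 made up 64.8, 64.7, 61.7 and 56.8% of the summed FPKM of the 4 genes in controls and 48.7, 54.3 and 51.1% in mutants. Slc27a1 made up 27.8, 28.4, 31.5 and 36.5% in controls and 42.8, 36.7 and 39.8% in mutants. Slc27a3 made up 3.84 to 4.10% in controls and 6.07 to 7.01% in mutants. The groups did not overlap for any of these 3 shares, the closest values being 36.5 and 36.7% for Slc27a1. Slc27a6 made up 2.67 to 3.31% in controls and 1.46 to 2.93% in mutants, with overlap. The ratio of Slc27a4 to Slc27a3, in FPKM, was 15.8, 16.7, 15.1 and 14.8 in controls and 6.95, 8.94 and 7.58 in mutants.

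**Figure D3:**
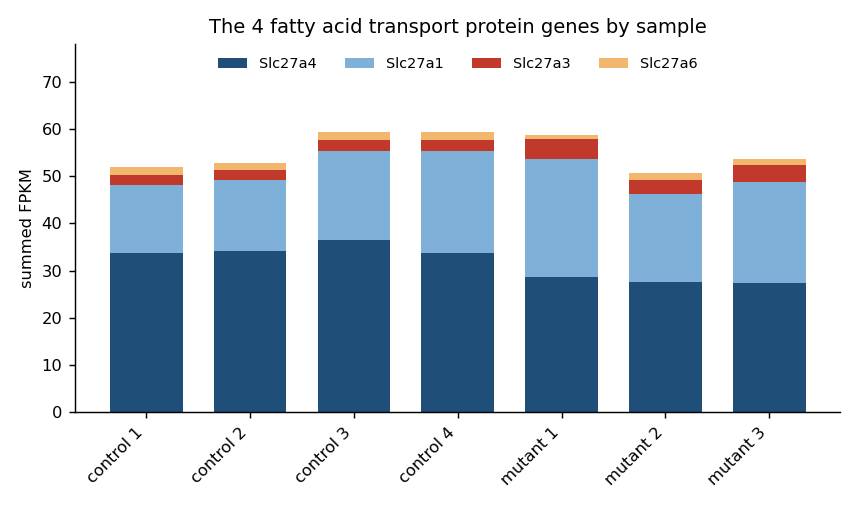
FPKM of Slc27a4, Slc27a1, Slc27a3 and Slc27a6 stacked for each of the 7 samples. The summed height runs from 50.7 to 59.3 FPKM with the genotypes overlapping, while the Slc27a4 segment is smaller in every mutant, at 27.4 to 28.6 FPKM against 33.6 to 36.6.

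The promoters of Slc27a4 and Slc27a3 are shown because these genes moved in opposite directions. Of the 10 genes 6 had an entry among the RefSeq promoters (GRCm38.p6), and the entries of these 2 genes begin at the gene starts of the table. The 250 bases before the start are given 5′ to 3′ on the strand of the gene, with matches to GGGCGG or its reverse complement (the GC box bound by SP factors) and to CCAAT in capitals.
Slc27a4, chr2:29802384-29802633, plus strand: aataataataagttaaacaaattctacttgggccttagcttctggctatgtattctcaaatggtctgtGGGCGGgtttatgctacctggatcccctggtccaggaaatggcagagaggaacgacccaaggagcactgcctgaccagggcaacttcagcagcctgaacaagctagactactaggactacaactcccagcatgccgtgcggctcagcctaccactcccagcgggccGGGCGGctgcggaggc
Slc27a3, chr3:90389939-90390188, minus strand: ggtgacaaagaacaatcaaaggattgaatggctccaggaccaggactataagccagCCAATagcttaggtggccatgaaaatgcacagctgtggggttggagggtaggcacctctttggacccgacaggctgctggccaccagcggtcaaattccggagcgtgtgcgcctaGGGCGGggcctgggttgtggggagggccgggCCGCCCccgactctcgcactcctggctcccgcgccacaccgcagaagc
Both held 2 matches to the GC box, and 32.7% of 32851 promoters held at least 1 on either strand. Slc27a3 also held 1 CCAAT, and 33.8% of promoters held at least 1. Neither held CACGTG, which 6.02% of promoters held, nor AGGTCANAGGTCA, the direct repeat with a spacer of 1 base bound by PPAR and RXR receptors in its strict form, which 0.0335% held. The share of G and C was 54.4% for Slc27a4 and 62.4% for Slc27a3, against a median of 52.4% over all promoters. A match is a description of these letters, not of binding.

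Of 41 other genes of these pathways, 21 passed the filter, none was called higher and 1 was called lower with limma-trend. The called share of all genes tested was 2.62%, with 1.26% higher and 1.36% lower. An unadjusted p under 0.05 (limma-trend) was found for 6 higher and 3 lower. Over all genes tested that share was 24.4%, with 15.9% higher and 8.50% lower. Of the 21, 13 had a log2 fold change above 0, with a median of 0.09 against 0.05 over all genes. The gene called was Lmf1, lipase maturation factor 1, which helps LPL and related lipases to fold in the endoplasmic reticulum. It was at 21.1, 21.8, 23.5 and 21.9 FPKM in controls and 17.5, 15.8 and 15.7 in mutants. Every mutant lay below every control, with a log2 fold change of -0.42 (SE 0.0689, adjusted p = 0.0265, limma-trend). With 1 sample left out it passed in 2 of 7 fits, those without mutant replicate 1 or 2, with adjusted p from 0.0360 to 0.101. The other 9 tested genes of lipase handling and lipoprotein receptors, of 17 in the list, were not called, and the median of the 10 was 0.08.

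Among 12 other intracellular lipid carriers 3 were tested, with a median of 0.60, and none was called with limma-trend, where 3 higher had an unadjusted p under 0.05, against the 15.9% of all genes that were higher by this measure. The retinoic acid carrier Crabp2 was at 38.9 to 48.4 FPKM in controls and at 97.6, 51.9 and 59.1 in mutants, with no overlap, and its log2 fold change was 0.60 (SE 0.191, adjusted p = 0.110, limma-trend). Mutant replicate 1 was the highest sample for Crabp2 and for the endothelial, pericyte, macrophage and meningeal fibroblast sums. Itm2a and Vtn were the largest terms of the endothelial and pericyte sums, and several other markers of these lists were highest in mutant replicate 2. Among controls Crabp2 was highest in replicate 4 and the fibroblast sum in replicate 1. The part of those cells in the Crabp2 values was not tested. Fabp1, Fabp2, Fabp6 and Fabp9 were listed at 0 in every sample. In the same list Fabp12 was at no more than 0.0325 FPKM and Pmp2 at no more than 0.336 in any sample, both under the filter. Fabp3, Fabp5 and Fabp7 were thus the FABP genes above the filter.

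Of 12 other membrane proteins of fatty acid uptake 8 were tested, with a median of -0.07, and none was called with limma-trend, where 2 higher and 1 lower had an unadjusted p under 0.05, against the 24.4% of all genes. The smallest p-values belonged to the caveolae component Cav2, at 30.9 FPKM in controls and 36.5 in mutants (log2 fold change 0.24, SE 0.0875, adjusted p = 0.142, limma-trend), and to the lipoprotein receptor Scarb1, at 17.4 and 19.9 FPKM (0.19, SE 0.0724, adjusted p = 0.157). With the replicate block 4 of the 21 genes were called in place of 1, among them Crabp2 and Lrp1, higher, and Lmf1, lower. The fit with the block called 8.36% of all genes tested, against 2.62% without it, and 76.8% of its calls were higher.

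**Figure D4:**
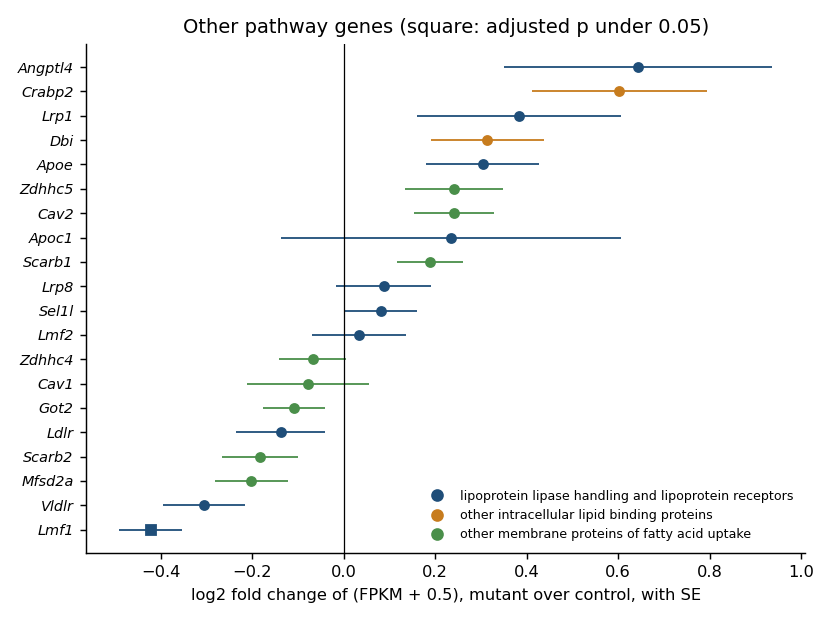
Log2 fold change of FPKM + 0.5, mutant over control, with its SE for 20 of the tested pathway genes beside the 10, colored by list. Lmf1, at -0.42, is the 1 gene past the threshold (square), and Angptl4 and Crabp2 have the highest values shown.

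The genes whose spread over the 7 samples was most like that of each tested gene were found by Pearson's r of log2(FPKM + 0.5) after the genotype means were taken away, among 9451 genes with a mean of at least 5 FPKM. With 7 points from shared libraries such values are high by selection and are a description only. The most like Slc27a3 were Trim26 (r = 0.997), Wfdc1 and Eif3b, and the most like Slc27a4 were Usp40 (0.971), Tagln and Mrps10. For Slc27a1 they were Med25 (0.994), Ppard and Mark2, and for Slc27a6 Cdc42se2 (0.993), Mfsd6 and Slc35e3. For Fabp5 they were Sec14l2 (0.992), Gde1 and Bcas1. For Fabp7 they were Nudt10 (0.987), Tpd52l2 and Snn, and for Fabp3 Mrps5 (0.979), Rrp8 and Atpaf2. For Lpl they were Kcnn2 (0.994), Cd44 and Fcrls, and for Cd36 Tcf20 (0.995), Kdelc2 and Manba.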

How the data were processed

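RNA of P14 optic nerves was assigned to genotype and replicate by the labels. The authors made libraries with a stranded mRNA kit, aligned reads with STAR 2.5.1b to GRCm38 and estimated gene levels with RSEM 1.2.22 (versions per the submitters' processing notes), and tested with edgeR. They deposited 1 table with a normalized count, a signal per gene scaled by sample, and an FPKM value per sample. All 14 columns of per-sample values were used. The authors' fold changes, p-values and FDR, also in the table, were not used. For genes above 50 normalized counts in every sample, FPKM times length over the normalized count deviated from its median in the sample by at most 0.181%. Whether counting used the strand is not given in the sources used here.

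The step of the normalized counts gave read totals, and 78.2% to 83.5% of values of 0.5 to 10 reads were within 0.1 of a whole read. A count model was not run here for that reason, although the authors ran edgeR. Tests used limma 3.58.1 (limma-trend, genotype as the only term, all 7 samples) in R 4.3.3, checked on simulated data. Permutation tests used scipy 1.17.1 and alignments MAFFT 7.526. Precision is limited by 4 and 3 mice. Samples of a genotype differed beyond read sampling noise, with a median chi-square per gene of 2.14 to 6.37, and each was kept.

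Same-numbered samples of the genotypes deviated together, with r across genes of 0.168 to 0.409 in 3 pairs, against -0.353 to 0.205 in 9 pairs of different number. The labels do not say what a number stands for, and the pairing was taken from these correlations. Same-numbered samples also shared the level of Ddx3y. It was at no more than 0.0568 FPKM in replicates 1 and 2 of both genotypes. In replicate 3 it was at 42.1 FPKM in the control and 43.2 in the mutant. The replicate block therefore also compares samples of like Ddx3y level.

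The members and lists were chosen with earlier results of these data known. Named genes are the 10 members, list genes past the threshold or else the 2 with the smallest p, and the 3 genes most like each tested member, with Fasn as the check. Some results on list genes that this rule takes are not reported here. Lists not covered by this rule and genes named beyond it, such as Lrp1, Angptl4 and Ddx3y, were named after their values were seen. Of the other marker lists, summed FPKM in controls and mutants was 289 to 396 and 382 to 552 for pericytes, 360 to 399 and 312 to 384 for OL progenitors, 2038 to 2147 and 1512 to 1784 for newly formed OLs, 240 to 289 and 270 to 315 for microglia, and 17.9 to 22.7 and 15.1 to 22.5 for Schwann cells. Alternatives covered pseudocounts, filters, scaling, normalized counts, array weights, the replicate block and leaving out each sample.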

Additional observations from a re-analysis of the deposited data

Results flagged for a closer look

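In 1 sample the sum of 6 red blood cell markers stood apart from the rest of its group. It was 12728 FPKM in control replicate 2, against 2853 to 4320 in the other 3 controls and 3817 to 5599 in the mutants, a gap larger than the 95% critical value for a group of 4. Of 38 groups searched this was the 1 that stood out, and chance flags about 1 in 20. Control replicate 2 was the lowest control for Cd36, Slc27a3 and the endothelial sum and the highest for Fabp5 and Fabp7. Without it the log2 fold change of Slc27a3 was 0.56 with an adjusted p of 0.106 and that of Slc27a4 was -0.31 with an adjusted p of 0.0928 (limma-trend).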

How the results depend on the processing

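Slc27a4 stayed lower and Slc27a3 higher in the 9 alternatives that kept all samples and the 7 that left 1 out, and Slc27a4 passed in those 9. Without a filter on low values 95 genes and 1 of the 10 genes were called, against 363 and 2. With array weights 1525 genes and 5 pathway genes were called, and with the replicate block 1159 and 4, against 363 and 1. The block raised the genes of the 10 called from 2 to 3, by Cd36, and changed no other of their calls. Control replicate 4 does not contribute to fold changes under the block. With 1 sample left out, 6 to 907 genes, 0 to 2 of the 10 genes and 0 to 4 pathway genes were called. The 907 came without mutant replicate 2, and the counts were 186 without mutant replicate 1, 117, 60 and 15 without control replicates 4, 1 and 2, and 6 without control replicate 3 or mutant replicate 3. None of the 10 genes was called in 6 of these 7 fits. Each such fit has fewer samples. Fabp7 turned positive with array weights (log2 fold change 0.0851) and without mutant replicate 1 (0.163), did not pass in either, and ran from -0.46 to 0.16 with 1 sample left out. The cause was not tested. Per longest protein coding transcript the control levels were 246 FPKM for Fabp5, 0.316 for Fabp4, 4.70 for Lpl and 1.81 for Slc27a3. Count models were not run, a choice made because many values were not whole reads, although the authors ran edgeR. Over scalings the median of all genes ran from -0.03 to 0.05. Fabp4, at 5.03 to 34 reads, was limited by depth.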
